A study of Mus musculus with 4 samples.

Results

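Perineuronal nets are lattices of extracellular matrix that wrap the cell body and proximal dendrites of certain neurons, in the striatum mainly interneurons that express parvalbumin. Their backbone is hyaluronan, to which chondroitin sulfate proteoglycans of the lectican family attach through link proteins, and tenascin-R joins neighbouring proteoglycans. The nets mature with the closing of critical periods, and proteases can loosen them. Thyroid hormone acts through nuclear receptors such as TRα1, the product of Thra, which bind DNA as partners of retinoid X receptors.

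The 10 net genes described here are the lecticans Acan, Bcan, Ncan and Vcan, the link protein genes Hapln1 and Hapln4, the tenascins Tnr and Tnc, the receptor phosphatase gene Ptprz1 and the protease gene Mmp9. Each gene was taken with its annotated RefSeq span and 30 kb on both sides, in the mouse build GRCm38, which is the same as mm10. A peak, meaning a region the authors called as enriched, belonged to a gene when its summit lay in that window. By this rule 7 of the 7484 peaks in the series were found, at 5 of the 10 genes. Counted the same way, 32.4% of all protein-coding genes had a peak. Peaks lay at Ncan, Hapln4, Tnr, Tnc and Mmp9, and Acan, Bcan, Vcan, Hapln1 and Ptprz1 had none. Ncan and Hapln4 were counted on the same peaks.

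The study immunoprecipitated chromatin from mouse striatum and sequenced 3 immunoprecipitated (IP) fractions and 1 input, which had no antibody. All 4 libraries are of the genotype the title gives as Gad2CrexThraGS, so input and IP carry the same alleles, and the title names the precipitated protein as GS-TRa1, a GS-tagged TRα1. The IP used IgG-coated magnetic beads. Gad2-Cre is a driver line that acts in GABAergic neurons, which make up most striatal neurons. The libraries came from whole striatum, and age, sex and hormone treatment are not given in the labels. The 4 libraries include no IP from animals without the tag. One peak list stands for the whole series, so each value below is the authors' single value per peak, with no spread between fractions.

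In this list a pileup is the number of DNA fragments stacked at the summit after 1 common scaling, and 1 fragment is worth 0.939. The median peak of the list had a pileup of 21.6, which is 23 fragments, a fold enrichment of 6.91 over its background and a width of 260 bp. Intervals given for fragments are 95% exact Poisson intervals and cover counting error only. The fold is the pileup plus 1 over the local background plus 1, and the background was recovered from that relation. The lowest pileup listed at the commonest background of 1.89, which 35.1% of peaks share, was 11 fragments. A member without a peak may therefore hold weaker signal that this list cannot show.

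Sequences of the 7 peaks are not shown, because no genome sequence was used here. Promoter windows from RefSeq (GRCm38.p6), from 250 bases before to 50 after an annotated start, matched 8 of the 10 genes in 9 windows, and Hapln4 and Mmp9 were not matched. The 3 below are shown because Ncan and Tnr have the peaks closest to a matched start, and Acan is the member without a peak that has a peak just beyond its window. Only the bases outside the annotated gene are printed, 5′ to 3′ on the gene's strand, and capitals mark CG dinucleotides.

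Ncan, chr8:70120864-70121094, minus strand: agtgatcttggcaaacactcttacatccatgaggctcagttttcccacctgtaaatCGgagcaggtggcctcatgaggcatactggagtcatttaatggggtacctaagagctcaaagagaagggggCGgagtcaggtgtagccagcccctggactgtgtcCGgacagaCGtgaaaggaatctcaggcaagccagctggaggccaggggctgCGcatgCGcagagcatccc

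Tnr, chr1:159523519-159523728, plus strand: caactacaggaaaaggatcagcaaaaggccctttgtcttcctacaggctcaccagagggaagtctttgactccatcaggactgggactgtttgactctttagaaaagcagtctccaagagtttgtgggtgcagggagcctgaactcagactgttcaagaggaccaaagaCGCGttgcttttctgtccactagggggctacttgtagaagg

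Acan, chr7:79052976-79053225, plus strand: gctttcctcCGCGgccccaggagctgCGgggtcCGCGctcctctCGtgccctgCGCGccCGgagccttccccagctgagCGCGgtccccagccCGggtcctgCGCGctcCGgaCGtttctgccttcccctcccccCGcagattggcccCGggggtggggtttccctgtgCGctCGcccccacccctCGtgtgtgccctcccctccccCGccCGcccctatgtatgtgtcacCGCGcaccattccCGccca

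The Acan stretch holds 26 CG dinucleotides, the Ncan stretch 6 and the Tnr stretch 2. Over the 250 bases before the start, the median of all 32851 promoter windows was 6. The other windows held 22 at Ptprz1, 16 at Bcan, 10 at Vcan, 10 and 8 at the 2 starts of Tnc, and 2 at Hapln1. The matched members with a peak, Ncan, Tnr and Tnc, thus ranged from 2 to 10. Members without a peak ranged from 2 to 26, so the ranges overlap. Hapln4 and Mmp9, which have peaks, are not covered.

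The receptor hexamer AGGTCA was searched on both strands of the whole windows, and so was a direct repeat of AGGNCA with 4 bases between its copies, the arrangement thyroid hormone receptors are known for. A repeat can include the single hexamer. The hexamer was found in 0 of the 9 member windows and in 16.3% of all windows. The spaced repeat was found in 0 of the 9 and in 0.253% of all windows. This says only that these letters are not in these windows, and none of the 7 peaks overlaps a promoter window of any gene in the table. The peaks themselves were not searched.

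A peak was found at 5 of 10 members, and at 32.4% of the 21887 protein-coding genes counted the same way. Ncan and Hapln4 are neighbours and hold the same 2 peaks, and the windows of Vcan and Hapln1 also overlap. Counted by separate loci, 4 of 8 had a peak. With so few genes, and with members chosen when results of these data were known, this count is a description of the set. In their own spans, without flanks, 3 members had a summit, Ncan, Tnr and Tnc, and so did 13.7% of protein-coding genes. Peak density was 4.71 per Mb over the 1485 kb of member windows and 3.96 per Mb over the windows of all protein-coding genes.

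**Figure D1:**
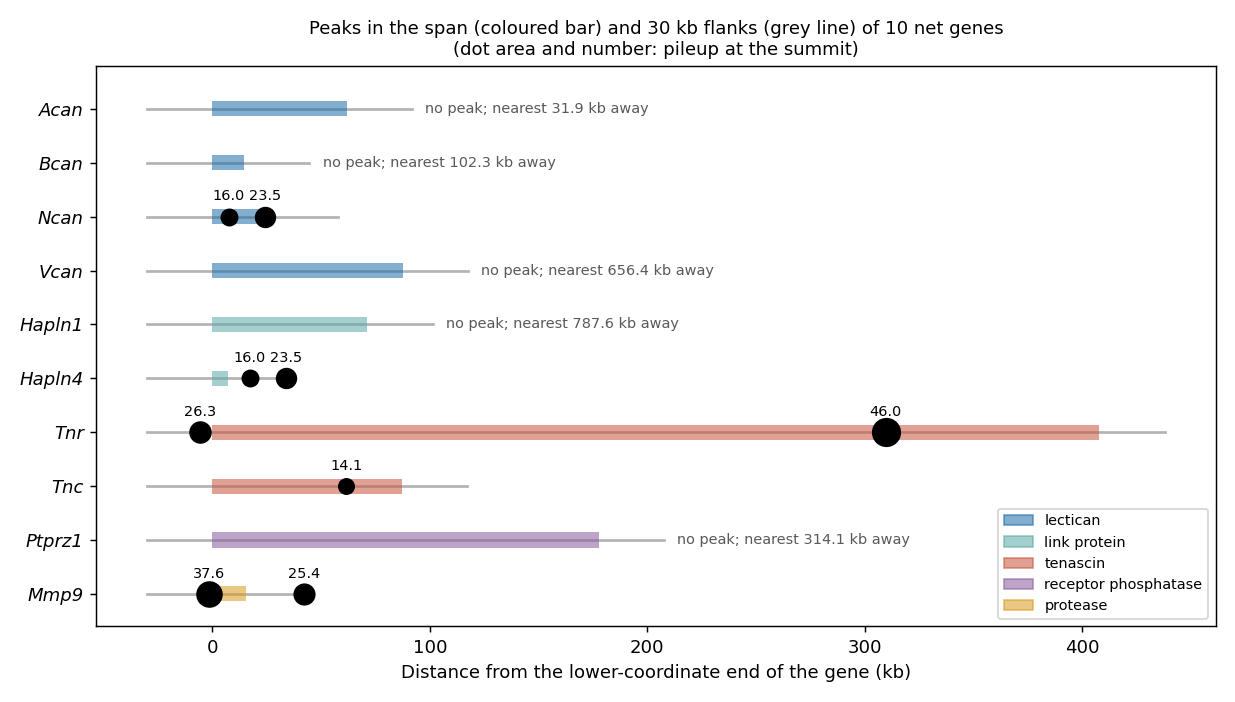
Each row is 1 net gene, with its span as a coloured bar, its 30 kb flanks as a grey line and peaks as dots whose area and number give the pileup; the x axis is the distance in kb from the gene's lower-coordinate end. Peaks are seen at Ncan, Hapln4, Tnr, Tnc and Mmp9, the dots of Ncan and Hapln4 being the same 2 peaks, and the nearest peak to each other gene is 31.9 to 787.6 kb away.

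Among the lecticans, Ncan alone had peaks. Ncan encodes neurocan, a proteoglycan made by neurons and astrocytes that is most abundant in the developing brain. The gene lies on chromosome 8 from 70093085 to 70120863 on the minus strand and is 27.8 kb long. Its stronger peak, at 70117106 to 70117328, was 223 bp wide with its summit 3618 bp downstream of the start, about 13.1% of the way along the gene. It had a pileup of 23.5, from 25 fragments (interval 16.2 to 36.9), a fold of 7.93 and a −log10 q of 13.2. This is close to the median peak of the list, as 54.3% of peaks had a lower pileup.

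The second Ncan peak, at 70100587 to 70100766, was 180 bp wide and lay 20172 bp downstream of the start, about 72.7% of the way along. It had a pileup of 16.0, from 17 fragments (9.90 to 27.2), a fold of 5.87 and a −log10 q of 6.22. Only 15.0% of the list had a lower pileup. The 2 summits are 16.6 kb apart and their fragment intervals overlap, and a difference in height was not tested. Both lay inside the annotated span, and whether they fall in an exon or an intron is not given by the gene table used here.

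The other lecticans had no peak. Acan encodes aggrecan, the proteoglycan most often used as a marker of nets. Its nearest peak was 31.9 kb beyond the higher end, just past the window, with a pileup of 13.2 from 14 fragments. That summit lay inside Mfge8, which encodes a secreted bridging protein of phagocytosis, and within 13.9 kb of Hapln3. At the inner edge of the rule, the outermost peaks counted were 26.4 kb from Hapln4 and 26.7 kb from Mmp9. Bcan encodes brevican, an abundant lectican of adult brain, and its nearest peak was 102.3 kb away with a pileup of 14.1. Vcan encodes versican, present in early matrix and at nodes of Ranvier, and its nearest peak was 656.4 kb away, with a pileup of 51.7.

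Link proteins tie lecticans to hyaluronan. Hapln4, whose product is also called Bral2, is a gene of 7.33 kb on chromosome 8 from 70083529 to 70090862, and it has no summit inside it. Both peaks in its window are those in Ncan, at 9810 and 26364 bp from Hapln4, and the nearer protein-coding gene is Ncan in each case. The weaker of these peaks also lay in the windows of Sugp1, at 28325 bp, and Tm6sf2, at 20606 bp. The stronger one lay in those of Rfxank, at 13580 bp, Nr2c2ap, at 14101 bp, and Borcs8 and Gm45929, both at 22273 bp. Distance alone does not assign these peaks to a gene.

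Hapln1 encodes the cartilage link protein, which is also part of nets and needed for their compact form. The gene, on chromosome 13 from 89540529 to 89611832, had no peak, and the nearest one lay 787.6 kb away beyond Vcan. It is the same peak as the one nearest to Vcan.

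Lectican and link protein genes sit side by side in the genome, in 4 pairs with no protein-coding gene between them. The gap was 2.22 kb for Ncan and Hapln4, 1.93 kb for Acan and Hapln3, 18.4 kb for Bcan and Hapln2, and 43.5 kb for Vcan and Hapln1. The Ncan and Hapln4 pair held 2 peaks and the Acan and Hapln3 pair held 1, the weak peak in Mfge8 described above. The Bcan and Hapln2 pair and the Vcan and Hapln1 pair held 0.

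Tnr had the highest pileup of the set. It encodes tenascin-R, a matrix glycoprotein that links lecticans in the net, and it is the longest member at 408 kb, on chromosome 1 from 159523729 to 159931729 on the plus strand. The strongest peak lay deep inside the gene at 159833355 to 159833658, with its summit 309.7 kb downstream of the start and 75.9% of the way along. It was 304 bp wide with a pileup of 46.0, from 49 fragments (36.3 to 64.8), a fold of 11.8 and a −log10 q of 33.9. It ranked 746 of 7484 by pileup and 1192 by fold.

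The second Tnr peak lay upstream of the gene at 159517908 to 159518113, 5783 bp before the start. Its pileup was 26.3, from 28 fragments (18.6 to 40.5), with a fold of 6.82, a −log10 q of 12.7 and a width of 206 bp. The fragment intervals of the 2 Tnr peaks overlap. Both stood on a background of 3.00, above the 1.89 to 2.09 of the other member peaks, so Tnr ranks lower by fold than by pileup. No other protein-coding gene has either summit in its window. A further weak peak, with a pileup of 16.0, lay 48.5 kb from Tnr and so outside the window.

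Tnc had the weakest peak of the set. It encodes tenascin-C, a glycoprotein of the embryonic and injured matrix that also occurs in nets. The gene lies on chromosome 4 from 63959785 to 64047015 on the minus strand. The peak, at 64021267 to 64021440, lay inside the gene, 25.6 kb downstream of the nearer of the 2 matched starts, and also inside the long non-coding RNA gene 8030451A03Rik. It had a pileup of 14.1, from 15 fragments (8.40 to 24.7), a fold of 5.22 and a −log10 q of 5.38. Its width of 174 bp was the smallest in the list, a value that other peaks share, and 6.43% of peaks had a lower pileup. The next nearest listed peak on the chromosome was 463 kb away. In the numbering of peaks, 1 number between the listed peaks on either side of the Tnc window is absent from the list.

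Ptprz1 had no peak within 314.1 kb. It encodes a receptor tyrosine phosphatase of glia and neurons whose secreted form, phosphacan, binds tenascin-R and anchors nets at the cell surface. The gene is 178 kb long, on chromosome 6 from 22875315 to 23052916. The nearest peak in the list was on the higher-coordinate side, with a pileup of 15.0 from 16 fragments.

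Mmp9 had the highest fold of the set. It encodes matrix metalloproteinase 9, a secreted gelatinase that cuts matrix around synapses and is known to act on nets. The gene lies on chromosome 2 from 164940326 to 164955850. Its stronger peak, at 164938673 to 164939041, was 1513 bp from the gene on the lower-coordinate side and 369 bp wide, the widest of the set. It had a pileup of 37.6, from 40 fragments (28.6 to 54.5), a fold of 13.3 and a −log10 q of 30.7. It ranked 1230 of 7484 by pileup and 889 by fold. The same summit was in the windows of Slc12a5, at 22033 bp, and of Zfp335, at 26228 bp.

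The second peak in the Mmp9 window lay inside Slc12a5, the gene of the neuronal potassium chloride cotransporter KCC2, which sets the chloride gradient for GABA responses. At 164982387 to 164982614 it was 26691 bp from Mmp9 and 17812 bp from Ncoa5. Its pileup was 25.4, from 27 fragments (17.8 to 39.3), with a fold of 9.12 and a −log10 q of 16.3. By nearest gene it belongs to Slc12a5, and Mmp9 then keeps 1 peak.

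Set side by side, the 7 peaks ran in pileup from 14.1 to 46.0 with a median of 25.4, where the list had 21.6. Their folds ran from 5.22 to 13.3 with a median of 7.93, where the list had 6.91. Of the 7, 5 were above the list's median pileup, 4 above its median fold and 5 narrower than its median width. The fragment intervals of the Tnr intragenic peak and the Mmp9 peak at 1513 bp overlapped each other. Both lay above the interval of the Tnc peak and above that of the weaker Ncan peak, without overlap. These intervals make no allowance for background, which was 3.00 at the Tnr peak and 1.89 at the Mmp9, Tnc and weaker Ncan peaks. The remaining 3 peaks, of 25 to 28 fragments, had intervals that overlapped with those of all the other peaks.

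**Figure D2:**
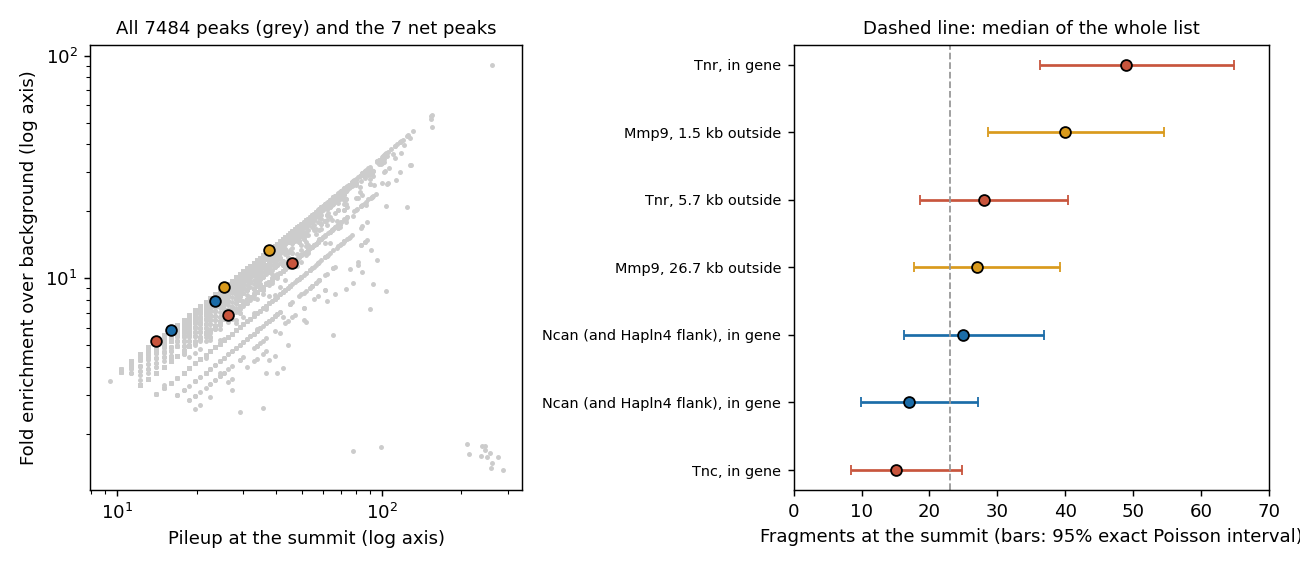
Left, fold enrichment against pileup on log axes for all 7484 peaks (grey) and the 7 net peaks (coloured by role as tenascin red, lectican blue, protease yellow); right, fragments at each net summit with 95% exact Poisson intervals, the dashed line marking the list median of 23 fragments. The Tnr intragenic peak (49 fragments) and the nearer Mmp9 peak (40) lie with their whole intervals above that median, and the 5 others have intervals that include it.

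Longer genes have wider windows and more often a peak, so gene length is given beside the count. Among genes under 10 kb, the class of Hapln4, 23.4% had a peak. From 10 to 20 kb, the class of Mmp9 and Bcan, the share was 32.6%, and from 20 to 50 kb, that of Ncan, 32.5%. From 50 to 100 kb it was 40.4%, and there Tnc had a peak while Acan, Hapln1 and Vcan had none. The class of Ptprz1, 100 to 200 kb, reached 46.7%, and that of Tnr, over 200 kb, 62.8%. Of the members with a peak, Tnr, at 408 kb, is the longest of all members, and Tnc, at 87.2 kb, is longer than Acan and Hapln1. Ncan, Hapln4 and Mmp9 are shorter than 4 of the 5 members without a peak. Hapln4 has no summit inside it and is counted through the peaks in Ncan.

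**Figure D3:**
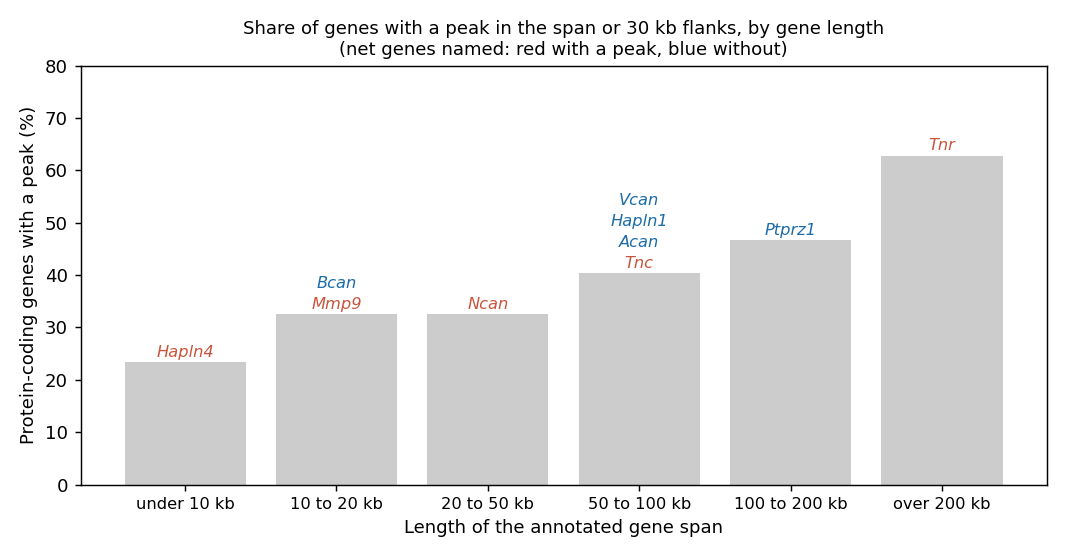
Bars give the percentage of protein-coding genes with a peak in the span or 30 kb flanks (y axis, from 0) by class of gene length (x axis), and net genes are named above their class, red with a peak and blue without. The share rises from 23.4% under 10 kb to 62.8% over 200 kb. Ptprz1, in the second longest class, has no peak. Hapln4, in the shortest, is counted through peaks that lie inside Ncan.

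At least 2 peaks were found at 4 members, Ncan, Hapln4, Tnr and Mmp9, and at 10.9% of protein-coding genes. When peaks had to reach 10 in −log10 q, 4 of 10 members kept one and Tnc lost its own, where 20.4% of protein-coding genes had such a peak. The count of Ncan and Hapln4 rests on the same peaks in both cases.

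Of 58 other genes of the net and its matrix, grouped by role, 17 had a peak by the same rule, 29.3%, near the 32.4% of all protein-coding genes. The chondroitin sulfate chains of lecticans are built and sulfated by a set of enzymes. Of these 17 enzyme genes, with a median length of 41.0 kb, 8 had a peak, 47.1%. Xylt1, Csgalnact1, Chsy3, Chst11 and Ust are longer than 200 kb, a class where 62.8% of all protein-coding genes had a peak. Of those long enzyme genes, only Csgalnact1 had no peak. Chst11, a chondroitin 4-O-sulfotransferase gene, had a pileup of 46.0 and a fold of 16.3 at 7042 bp from the gene. Chst15, a sulfotransferase gene that adds a further sulfate to chondroitin 4-sulfate, had a pileup of 37.6 inside the gene. Xylt1, whose product starts the chain on the core protein, had 29.1 inside the gene. Chst3, the gene of the main chondroitin 6-O-sulfotransferase, was among the 9 without a peak.

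Receptors that bind net proteoglycans had peaks at 3 of 4 genes, where 32.4% of all protein-coding genes had one. These 4 genes have the longest median length of the roles, 69.0 kb, and among all genes of 50 to 100 kb the share was 40.4%. Ptprs, which encodes the receptor phosphatase sigma, had 2 peaks, the stronger inside the gene with a pileup of 51.7 and a fold of 18.2. That is a higher pileup than at any of the 10 net components. Its 55 fragments still lie inside the interval of the Tnr intragenic peak, 36.3 to 64.8. Ptprf and Rtn4rl1 each had a highest pileup of 17.8, inside the gene, and Rtn4r, the Nogo receptor gene, had no peak.

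The remaining roles have shorter median lengths than the receptors, the other tenascins having the longest of these at 64.0 kb. Single genes such as Sema3a, at 479 kb, are long. The counts of these roles stand beside the same 32.4% of all protein-coding genes. The share was 32.6% for genes of 10 to 20 kb and 32.5% for genes of 20 to 50 kb. For genes of 50 to 100 kb, the class of the other tenascins, it was 40.4%. Hyaluronan genes, with a median length of 25.4 kb, had peaks at 0 of 8, among them the synthases Has1, Has2 and Has3 and the receptor gene Cd44. Their lengths run from 4.75 to 153.8 kb, over classes with shares from 23.4% to 46.7%. Other chondroitin sulfate proteoglycans, Cspg4, Cspg5, Dcn and Bgn, with a median length of 26.8 kb, had peaks at 0 of 4. Proteases that cut lecticans and their inhibitors, with a median length of 16.7 kb, had peaks at 2 of 14, or 14.3%, Adamts8 with a pileup of 16.0 and Timp2 with 13.2, and the aggrecanase genes Adamts4 and Adamts5 had none. Genes of proteins that bind to nets or occur with them, with a median length of 11.6 kb, had peaks at 2 of 7, or 28.6%, Crtac1 with 14.1 and Mdk with 13.2. Sema3a and Otx2, whose products are held by net glycans, had none. Of the other tenascins Tnxb had a pileup of 16.0 at 2822 bp and Tnn no peak, and of the other link proteins Hapln3 had 13.2 and Hapln2 no peak.

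At the same minimum of 10 in −log10 q, 6 of the 58 genes kept a peak, 10.3%, where 20.4% of protein-coding genes did. They were Xylt1, Csgalnact2, Chsy1, Chst11, Chst15 and Ptprs. The Csgalnact2 summit lay inside the neighbouring gene Rasgef1a, 24.5 kb from Csgalnact2, and the Chsy1 summit lay 22.9 kb outside Chsy1. The roles hold few genes each, and no role was tested against another.

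**Figure D4:**
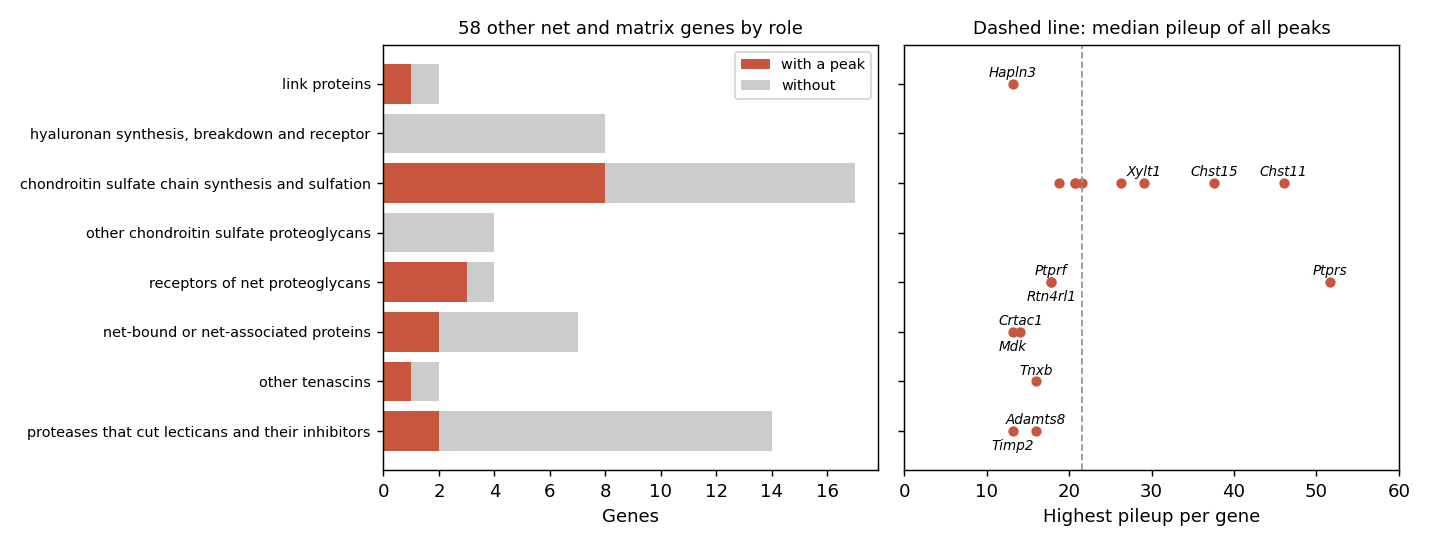
Left, the number of genes with a peak (red) and without one (grey) in each role of the 58 other net and matrix genes; right, the highest pileup of each gene with a peak, up to 3 named per role, with the list median of 21.6 dashed. Peaks above that median occur at Chst11, Chst15, Xylt1 and Csgalnact2 (a summit inside Rasgef1a) and at Ptprs, and the other genes with a peak lie at or below it.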

How the data were processed

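Chromatin from striatum was sequenced as 3 IP fractions and 1 input, grouped by the sample titles. The submitters' processing notes name Bowtie2 (2.3.4.2), MACS2 (2.1.1.20160309.0), GRCm38 and mm10, with no role or settings. Whether IP fractions were pooled before peak calling is not stated there. The authors deposited 1 peak list, with a pileup signal per peak. The authors' fold enrichment is a ratio to local background. The columns headed as p-value and q-value were deposited as −log10, judged from values above 1. Library totals were not used here.

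Pileups lay on multiples of 0.939 (largest residual 0.00504), which gave fragments per summit. Gene spans came from a RefSeq table of GRCm38.p6, with strand from the promoter table. All 10 members and 58 of 58 other list symbols matched. Peak names are numbered along the genome up to 7653. Numbers were checked between the listed peaks on either side of each member window. No number was missing for 9 members, and 1 was missing for Tnc. That number could lie anywhere between those peaks, not only in the Tnc window.

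The members and gene lists were chosen with earlier results of these data known, and no test was run. Named are all members, every protein-coding gene sharing a member peak, and up to 3 genes per role with the highest pileup. Genes without a peak, the 6 genes past a −log10 q of 10, Chsy3, Ust, Rasgef1a and Mfge8 were named after their values were seen. The assignment of summits to genes was tested on simulated data. Alternatives were other windows (0, 5, 10 and 100 kb), stricter peaks, any overlapping base and the nearest gene only. Python 3.11.15, pandas 2.3.3, numpy 2.4.6 and scipy 1.17.1 were used.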

Additional observations from a re-analysis of the deposited data

How the results depend on the processing

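No paired analysis was possible because the 1 peak list holds no value per sample, and leaving out a fraction could not be done for the same reason. The number of members with a peak stayed from 4 to 6 in 9 of 10 alternatives. The exception was the gene span without flanks, with 3 members, and 100 kb flanks added Acan. The number of member peaks was 4 in the gene span and 4 with folds above the list's median, and 5 to 9 in the other 8 alternatives. The share of protein-coding genes with a peak moved with the same settings, to 13.7% in the span, 19.1% with 5 kb, 54.0% with 100 kb, 20.4% with a −log10 q of at least 10, 19.5% with folds above the median and 18.7% by nearest gene. Of the 58 other genes, 6 kept a peak at a −log10 q of at least 10. With 10 kb flanks 5 members had a peak, beside 22.2% of protein-coding genes. Counting summits within 30 kb of either gene end, an alternative chosen after seeing the data, dropped the Tnr intragenic peak. It kept 5 members with 6 peaks, beside 30.1% of protein-coding genes with a peak.

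Pileup over the recovered background put the Mmp9 peak at 1513 bp first, with 19.9, and the Tnr intragenic peak second, with 15.3. The others were 13.4 for the Mmp9 peak inside Slc12a5, 11.2 and 8.45 for Ncan, 8.76 for the Tnr upstream peak and 7.46 for Tnc. No interval was computed for these ratios. With 15 to 49 fragments per summit, the fragment intervals of most pairs of these peaks overlap, and differences between peaks were not tested.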
